A study of Mus musculus with 10 samples.

Results

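The genes described here control the activation of plasminogen and the start of blood coagulation. They were 9 genes chosen by name: Plau, Plat, Plaur, Serpine2, Serpinf1, F3, Tfpi, Thbd and Procr. Of these 9, 7 were measured, each by a single probe, among 17991 genes with a tested probe in all. No probe listed here is named for Serpine2, and the F3 probe held no value on any array, so neither gene was analysed here. The 7 measured probes had a value above the floor on all 10 arrays.

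The samples were abdominal aortas of male ApoE-/- mice aged 14 weeks, a strain without apolipoprotein E that has raised blood cholesterol and forms plaques in its arteries. The infrarenal part of the aorta, below the arteries of the kidneys, was compared with the suprarenal part, above them. There were 5 infrarenal and 5 suprarenal samples, 1 of each from every pool of 2 mice, and the pools were numbered 1, 6, 8, 11 and 12. All mice carried the knockout, so no sample shows the genes in wild-type aorta, and a pooled sample does not show the spread between the 2 animals in it.

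Plasmin is the protease that dissolves fibrin and helps to degrade extracellular matrix. It is cut from plasminogen by the urokinase and tissue-type activators, and serpins trap such proteases. Coagulation starts when tissue factor in the vessel wall meets factor VII in blood, and endothelial cells hold it back with an inhibitor of that complex and with the thrombomodulin and protein C pathway. In the artery wall, both systems have been studied in thrombosis, plaque growth and aneurysm.

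Each sample was hybridised to 1 array, and the deposited values are intensities scaled so that the array median lay between 1.001 and 1.003. An intensity of 4 is thus about 4 times the middle probe of its array. Intensities of different probes depend on the probe and are not compared with each other here. Smooth muscle markers fitted the labelled tissue: all 8 were measured, and their summed intensity was 1276 to 1398 on infrarenal and 1345 to 1391 on suprarenal arrays. Neighbouring tissue varied between arrays: summed skeletal muscle markers were 71.5 to 511 on infrarenal and 30.8 to 588 on suprarenal arrays, and adipocyte markers 609 to 1288 and 527 to 1457. Pool 12 stood apart. Over 17847 probes brighter than the median, the correlation between its differences, infrarenal minus suprarenal, and those averaged over the remaining 4 pools was -0.421, against -0.137 for pool 1 and 0.128 to 0.40 for pools 6, 8 and 11. Pool 12 was also the only pool in which the mean of the adipocyte markers was higher in the infrarenal part, by 1.06 log2 units, against differences of -0.28 to -1.57 in the other 4. Smooth muscle markers had a list mean below 0 in pool 12 alone, at -0.14. In each of the other marker lists, pool 12 shared its sign with at least 1 other pool. Skeletal muscle markers were at -2.77 in pool 12 and -2.23 in pool 1, and macrophage markers were below 0 in all 5 pools. Whether the region labels of the 2 arrays of pool 12 were exchanged was not tested. If they were, each pool 12 difference below would have the other sign. The difference of each of the 7 genes is therefore also given without pool 12.

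The question was whether these genes are expressed at different levels in the 2 parts of the aorta of the same animals. None of the 7 measured genes passed the test, a limma fit that blocks on the pool, with adjustment over 36061 probes. Adjusted p-values of the 7 by limma ran from 0.639 to 0.938. Among all probes 0 passed, a percentage of 0, so the absence of calls is shared by all probes. At an unadjusted p under 0.05 there was 1 gene of the 7, Plat, where 7.56% of all probes lay under that value. The estimated differences were below 0 for 7 of 7 measured genes, where 54.2% of all probes and 60.5% of genes with complete values were below 0. By pool, the infrarenal value was lower for 1, 6, 5, 4 and 5 of the 7 in pools 1, 6, 8, 11 and 12. Without pool 12 the estimates were below 0 for 5 of the 7. With all pools the median of the 7 estimates was -0.088 log2 units, beside -0.023 over all probes and -0.049 over genes with complete values. After quantile normalization the estimates of Plaur, Serpinf1 and Procr were above 0, and the median of the 7 was -0.031. The plot of differences by gene shows how far the pools lay apart.

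**Figure D1:**
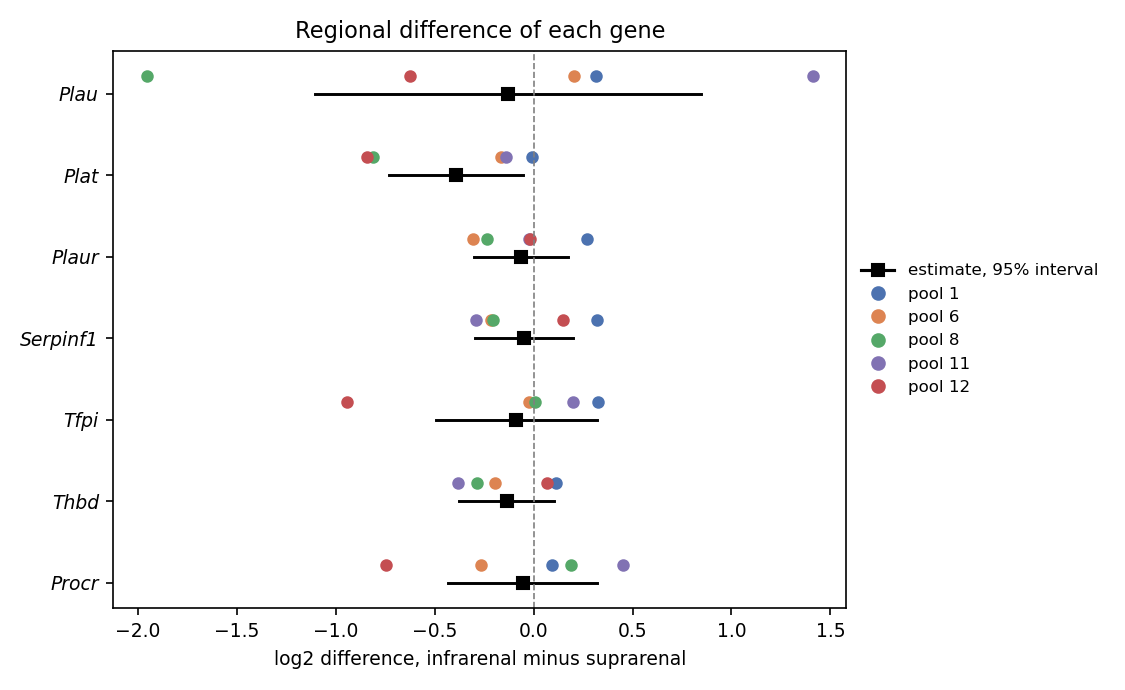
Log2 difference, infrarenal minus suprarenal, of the 7 measured genes. Black squares are the limma estimates with 95% intervals and coloured points the 5 pools. The interval of Plat, from -0.73 to -0.05, is the only one that leaves out 0, and that interval is not adjusted for the number of probes.

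Plat encodes the tissue-type plasminogen activator, which endothelial and other vessel wall cells release and which acts best when bound to fibrin. Its intensity was 3.86, 4.88, 3.55, 4.71 and 3.54 on the infrarenal arrays of pools 1, 6, 8, 11 and 12, against 3.88, 5.48, 6.22, 5.18 and 6.36 on the suprarenal arrays of the same pools. The infrarenal value was the lower of the pair in 5 of 5 pools, yet in pool 1 the 2 values were nearly equal, and that suprarenal value lay among the infrarenal ones, so the regions overlapped. An infrarenal value below the suprarenal one in all 5 pools was found for 5.29% of all probes. Mean intensity was 4.11 ± 0.64 in infrarenal and 5.42 ± 0.99 in suprarenal aorta (SD, n = 5 each). The log2 difference was -0.39 ± 0.15 (SE, n = 5 pools), a ratio of 0.761 with a 95% interval of 0.602 to 0.963. By limma the unadjusted p was 0.0283, at rank 1440 of 36061 probes, and the adjusted p was 0.639. The exact two-sided sign-flip permutation over pools gave 0.0625, the smallest p that 5 pools allow.

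The size of the Plat difference came from 2 pools. The log2 differences were -0.81 in pool 8 and -0.84 in pool 12, against -0.007, -0.17 and -0.14 in pools 1, 6 and 11. Without pool 12 the estimate was -0.28 (adjusted p = 0.517), and without pool 8 it was -0.29 (adjusted p = 0.834). Whether a lower value comes from fewer cells that express a gene or from less RNA per cell cannot be told apart in such tissue samples, for Plat or for any gene here.

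Marker lists of 3 cell types of the wall were set beside Plat by pool. Adventitial fibroblast markers, all 8 measured, had list means of 0.17, -0.083, -0.32, 0.018 and -0.30 log2 units, infrarenal minus suprarenal, in pools 1, 6, 8, 11 and 12. The lowest of these were in pools 8 and 12, as for Plat. Their summed intensity was 480 to 675 on infrarenal and 511 to 611 on suprarenal arrays, and 6 of the 8 estimates were below 0. Macrophage markers, 8 of 10 measured, had list means of -0.036, -0.44, -0.37, -0.005 and -0.59 in the same pools, with 7 of 8 estimates below 0. Their summed intensity was 210 to 268 on infrarenal and 265 to 364 on suprarenal arrays. Endothelial markers did not share this order: their list mean was 0.17 in pool 8, where Plat was at -0.81, and -0.30 in pool 12. No marker of these 3 lists was at the floor on any array. The part of these cells in the Plat values was not tested.

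**Figure D2:**
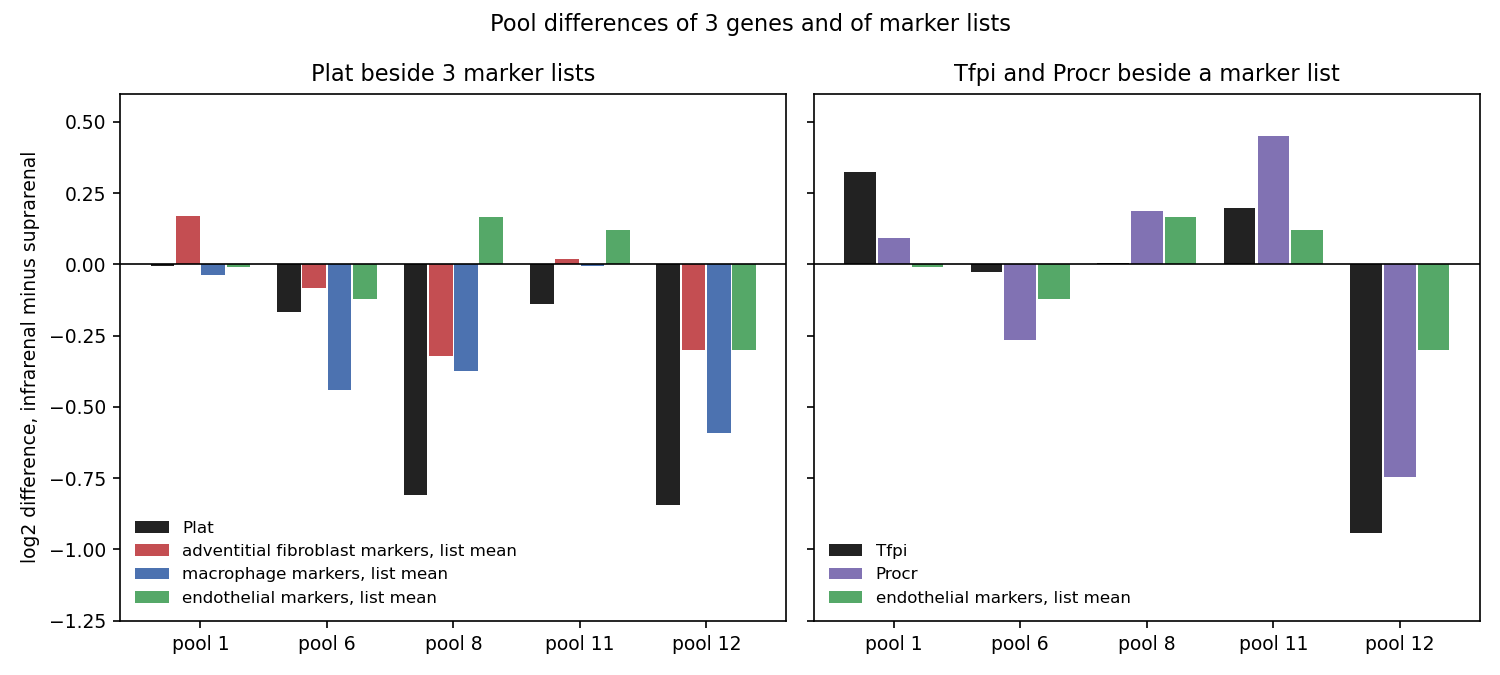
Log2 difference, infrarenal minus suprarenal, in each pool. Left, Plat beside the means of adventitial fibroblast, macrophage and endothelial markers; right, Tfpi and Procr beside the mean of endothelial markers. Plat was at -0.81 and -0.84 in pools 8 and 12, and Tfpi and Procr were at -0.94 and -0.75 in pool 12.

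Plau encodes urokinase, the activator that works at cell surfaces. The probe was dim: it read 0.416, 0.625, 0.155, 0.519 and 0.322 on infrarenal arrays of pools 1, 6, 8, 11 and 12, against 0.335, 0.542, 0.60, 0.195 and 0.497 on suprarenal arrays, below the array median on all 10. The lowest value was infrarenal in pool 8 and the next suprarenal in pool 11, and the regions overlapped over nearly their whole range. Accordingly the pool differences ran from -1.96 in pool 8 to 1.41 in pool 11, on the log2 scale. The estimate was -0.13 ± 0.42 (SE, n = 5 pools; limma adjusted p = 0.938), with an interval of the ratio from 0.465 to 1.79, the widest of the 7. It was -0.007 without pool 12 and 0.33 without pool 8.

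Plaur encodes the urokinase receptor, which holds the activator on the surface of macrophages and other cells. It read 4.69, 3.99, 4.81, 4.53 and 4.90 on infrarenal arrays of pools 1, 6, 8, 11 and 12, against 3.89, 4.93, 5.66, 4.61 and 4.96 on suprarenal arrays. This was the steadiest of the 7 probes, with an SD over all arrays of 0.157 log2 units, smaller than that of most probes: 18.9% of them had a smaller SD. The infrarenal value was lower in 4 pools and higher in pool 1. The difference was -0.063 ± 0.10 log2 units (SE, n = 5 pools; limma adjusted p = 0.868), with an interval of the ratio from 0.812 to 1.13, and -0.074 without pool 12. Among the activators and their receptor, the pools with the lowest differences were thus pool 8 for Plau, pool 12 for Plat and pool 6 for Plaur.

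Serpinf1 encodes pigment epithelium-derived factor, a secreted serpin that does not inhibit proteases and is known for restraining vessel growth. It read 40.2, 38.3, 41.3, 41.2 and 50.8 on infrarenal arrays of pools 1, 6, 8, 11 and 12, against 32.2, 44.5, 47.7, 50.5 and 45.9 on suprarenal arrays. The infrarenal array of pool 12 was the highest of its region and the suprarenal array of pool 1 the lowest of its own, and in both pools the infrarenal value was the higher one. In pools 6, 8 and 11 it was the lower one, by 0.22, 0.21 and 0.29 log2 units. The estimate was -0.050 ± 0.11 (SE, n = 5 pools; limma adjusted p = 0.905), with an interval of the ratio from 0.814 to 1.15. It was -0.099 without pool 12 and 0.011 without pool 11.

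**Figure D3:**
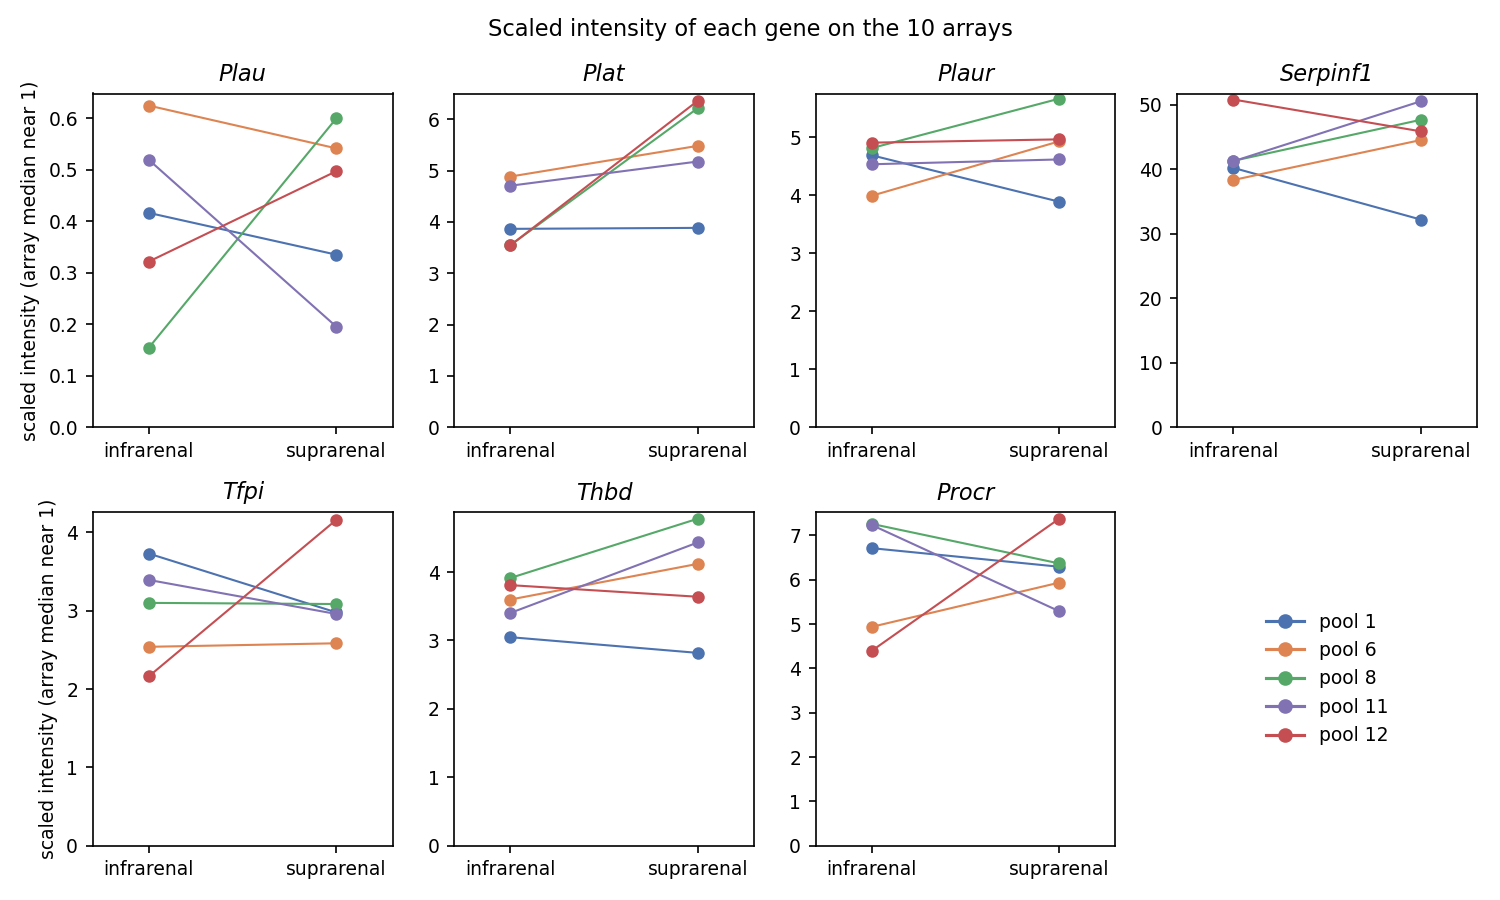
Scaled intensity, on a linear axis from 0, of the 7 measured genes on each of the 10 arrays, infrarenal on the left and suprarenal on the right. A line joins the 2 arrays of a pool. Plat lines run upward to the suprarenal side in all 5 pools, nearly level in pool 1, while for each of the other 6 genes some lines run upward and some downward.

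Tfpi encodes tissue factor pathway inhibitor, which endothelial and other cells make and which blocks the complex of tissue factor and activated factor VII. It read 3.73, 2.54, 3.10, 3.39 and 2.16 on infrarenal arrays of pools 1, 6, 8, 11 and 12, against 2.98, 2.58, 3.09, 2.96 and 4.16 on suprarenal arrays. Pool 12 held both extremes, with the lowest value of the 10 on its infrarenal and the highest on its suprarenal array. The log2 difference was -0.94 in that pool and between -0.025 and 0.32 in the others. Over all pools it was -0.088 ± 0.18 (SE, n = 5 pools; limma adjusted p = 0.895), and without pool 12 it was 0.13 ± 0.11 (adjusted p = 0.689), so the sign was set by that pool.

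Procr encodes the endothelial receptor that presents protein C for activation. It read 6.71, 4.94, 7.26, 7.23 and 4.40 on infrarenal arrays of pools 1, 6, 8, 11 and 12, against 6.29, 5.93, 6.37, 5.29 and 7.38 on suprarenal arrays. As for Tfpi, the lowest and the highest of the 10 values were the infrarenal and the suprarenal array of pool 12. The pool differences were 0.093, -0.27, 0.19, 0.45 and -0.75 log2 units, with an estimate of -0.056 ± 0.16 (SE, n = 5 pools; limma adjusted p = 0.931). Without pool 12 it was 0.12 ± 0.13 (adjusted p = 0.762). The sign was negative in pools 6 and 12 for both genes and positive for both in pools 1, 8 and 11. Tfpi was near 0 in pools 6 and 8, at -0.025 and 0.0068.

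Thbd encodes thrombomodulin, which binds thrombin on endothelium and turns it towards the activation of protein C, the step that the Procr product assists. It read 3.05, 3.60, 3.91, 3.40 and 3.81 on infrarenal arrays of pools 1, 6, 8, 11 and 12, against 2.82, 4.12, 4.78, 4.43 and 3.64 on suprarenal arrays. Unlike Tfpi and Procr, it had a positive difference in pool 12, at 0.066. The difference was also positive in pool 1, at 0.11, as for both of those genes, and it was -0.20, -0.29 and -0.38 in pools 6, 8 and 11. The estimate was -0.14 ± 0.10 log2 units (SE, n = 5 pools; limma adjusted p = 0.708), with an interval of the ratio from 0.771 to 1.07. It was -0.19 without pool 12.

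Endothelial markers were set beside these 3 genes, since all are known from endothelium. All 10 markers were measured, with 4 of 10 estimates below 0, a summed intensity of 172 to 243 on infrarenal and 192 to 228 on suprarenal arrays, and none at the floor. The list means were -0.007, -0.12, 0.17, 0.12 and -0.30 log2 units, infrarenal minus suprarenal, in pools 1, 6, 8, 11 and 12. The lowest was in pool 12, as for Tfpi and Procr, and the infrarenal array of that pool had the smallest sum of the 10 arrays. Thbd had the sign opposite to the list in pools 1, 8, 11 and 12, with -0.29 against 0.17 in pool 8, for example. In pool 12 the differences of Tfpi and Procr were larger than that of the list. The part of endothelial cells in these values was not tested.

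The promoters of Procr and Tfpi are shown because these 2 genes, picked out after their values were seen, had the same sign as each other in every pool. That sign changed between pools, and Tfpi was near 0 in pools 6 and 8. The trait was not particular to this pair. Thbd and Serpinf1 also had the same sign as each other in every pool, positive in pools 1 and 12 and negative in pools 6, 8 and 11. No window was matched for Thbd, and that of Serpinf1 is not shown. The sequences are RefSeq windows of GRCm38.p6, from 250 bases before to 50 after a transcript start that RefSeq lists, which need not be the outermost base of the gene, written from 5′ to 3′ on the gene's strand. RefSeq windows were matched by symbol for 6 of the 9 genes, in 7 windows. Capitals mark matches on either strand. The letters searched were TATAAA for the box of that kind near many starts, GGGCGG for the GC box, CCAAT for the box of the same name, CACCC for the motif read by Krüppel-like factors, and TGANTCA for the AP-1 site. Procr lies at chr2:155750967-155751266 on the + strand, and Tfpi at chr2:84476710-84477009 and, for a second start, chr2:84474125-84474424, both on the - strand.
Procr: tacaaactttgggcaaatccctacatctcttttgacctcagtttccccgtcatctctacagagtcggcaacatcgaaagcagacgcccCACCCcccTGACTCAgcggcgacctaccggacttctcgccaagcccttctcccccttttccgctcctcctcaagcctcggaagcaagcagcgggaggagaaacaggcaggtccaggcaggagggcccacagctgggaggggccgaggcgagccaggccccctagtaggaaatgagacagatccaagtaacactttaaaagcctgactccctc
Tfpi, first start: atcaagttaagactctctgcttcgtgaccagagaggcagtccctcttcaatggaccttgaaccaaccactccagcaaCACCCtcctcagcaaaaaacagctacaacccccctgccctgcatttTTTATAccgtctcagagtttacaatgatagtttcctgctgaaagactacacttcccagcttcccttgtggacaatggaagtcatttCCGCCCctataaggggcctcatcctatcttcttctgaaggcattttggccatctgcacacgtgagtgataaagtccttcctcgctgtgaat
Tfpi, second start: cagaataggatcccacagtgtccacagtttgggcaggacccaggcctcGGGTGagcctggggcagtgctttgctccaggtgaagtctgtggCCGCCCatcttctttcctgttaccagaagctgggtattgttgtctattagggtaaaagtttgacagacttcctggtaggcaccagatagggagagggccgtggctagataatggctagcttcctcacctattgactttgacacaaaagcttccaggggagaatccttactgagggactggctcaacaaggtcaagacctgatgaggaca
All 3 windows held a CACCC motif, at 162 bases before the start in Procr and at 173 and 202 before the starts of Tfpi, a motif found in 57.5% of 32851 such windows. Procr also held an AP-1 site at 154 bases before the start, a motif found in 7.81% of windows. Each Tfpi window held a GC box, found in 35.7% of windows, and the first also the letters TATAAA on the other strand, found in 13.6%. None of these matches overlapped another. GC content was 58.3% in the Procr window and 48.0% and 52.3% in those of Tfpi. A match is a stretch of letters and does not show that a factor binds there.

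The genes whose values most resembled those of each measured gene were sought among 11152 brighter genes, by Pearson correlation over the 10 arrays, which share 5 pools. They are given as a description, since the highest of many was taken. Plat was most like Fstl1, which encodes a secreted glycoprotein of mesenchymal cells (r = 0.962, Spearman's rho = 0.842, and r = 0.960 without the 2 arrays farthest from the Plat median). Serpinf1 was most like Plod3, which encodes a collagen-modifying lysyl hydroxylase (r = 0.948, rho = 0.952, and 0.940 without 2 arrays). For Tfpi it was Rpl15 (r = 0.953, rho = 0.915) and for Procr it was Rpl7 (r = 0.941, rho = 0.903), both encoding proteins of the large ribosomal subunit. Without the 2 arrays farthest from the median these were 0.891 and 0.907. Thbd was most like Cck (r = 0.942, rho = 0.927, and 0.902 without 2 arrays), which encodes the peptide hormone cholecystokinin. For Plaur it was Hnrnpa2b1 (r = 0.914) and for Plau Sohlh2 (r = 0.933), and these rested partly on 2 arrays each, with r = 0.781 and 0.750 without them.

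The wider system was covered by 4 lists with 64 further genes, of which 56 were measured. By limma 0 of the 56 passed in either direction, and 6, or 10.7%, had an unadjusted p under 0.05, where the share was 7.56% of all probes and 8.09% of all genes with complete values. Of 15 other genes of the plasminogen system, 10 had differences below 0, with a median of -0.12 log2 units. Differences below 0 were found for 60.5% of all genes with complete values, beside 66.7% in this list, 66.7% and 75% in the next 2 and 42.9% in the last. These shares count dim probes too. Plg, A2m, F2, F11, F13b and Serpind1, among others, read below the array median on all 10 arrays, and A2m, F11 and F13b reached the floor. The 2 of smallest p in the plasminogen list encode proteins that bind plasminogen at cell surfaces. S100a10 read 12.8, 10.7, 15.8, 11.9 and 10.7 on infrarenal arrays of pools 1, 6, 8, 11 and 12, against 16.9, 12.1, 15.6, 14.2 and 12.01 on suprarenal arrays, lower in 4 of 5 pools. Its difference was -0.20 ± 0.08 log2 units (SE; limma adjusted p = 0.639). Plgrkt, a plasminogen receptor, read 9.86, 7.02, 7.45, 7.24 and 7.19 on infrarenal arrays, against 8.69, 9.90, 9.38, 9.72 and 8.36 on suprarenal arrays. The infrarenal value of pool 1 lay among the suprarenal ones, and the other 4 infrarenal values lay below all of them. The difference was -0.26 ± 0.11 (SE; limma adjusted p = 0.639).

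Of 18 other genes listed with the coagulation factors, 12 had differences below 0 and 6 above, with a median of -0.070 log2 units. The list also holds Ggcx, Vkorc1, Lman1, Mcfd2 and P4hb, which do not encode coagulation factors. Their differences, all below 0, were -0.17, -0.045, -0.12, -0.060 and -0.080. F13a1 encodes the subunit of factor XIII that crosslinks fibrin and is also known from macrophages. It read 22.9, 22.3, 26.1, 27.3 and 28.6 on infrarenal arrays of pools 1, 6, 8, 11 and 12, against 27.3, 32.3, 31.3, 29.4 and 32.02 on suprarenal arrays. The infrarenal value was lower in 5 of 5 pools, while the ranges of the regions overlapped, and the difference was -0.26 ± 0.08 (SE; limma adjusted p = 0.639). Macrophage markers, given beside Plat, also had list means below 0 in all 5 pools, and their part in the F13a1 values was not tested. F9, coagulation factor IX, had a dim probe below the array median on all arrays and a difference of 0.45 ± 0.25 (SE; limma adjusted p = 0.652).

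Of 16 other anticoagulant genes, 12 had differences below 0, with a median of -0.059. Proc, which encodes protein C, and Proz, a cofactor for the inhibition of activated factor X, were both dim. Proc differed by 0.88 ± 0.33, higher in 4 of 5 pools, and Proz by -0.45 ± 0.18, lower in 5 of 5 (SE; limma adjusted p = 0.639 for each). The 7 measured thrombin and protease-activated receptors, a list that includes platelet glycoprotein genes, had a median of 0.050, with 3 below 0. F2r, the main thrombin receptor of vessel wall cells, differed by -0.21 ± 0.20 and F2rl2 by 0.26 ± 0.25 (SE; limma adjusted p = 0.757 and 0.761). Platelet markers, which share 3 genes with that list, had a summed intensity of 57.2 to 80.5 on infrarenal and 56.1 to 127 on suprarenal arrays.

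**Figure D4:**
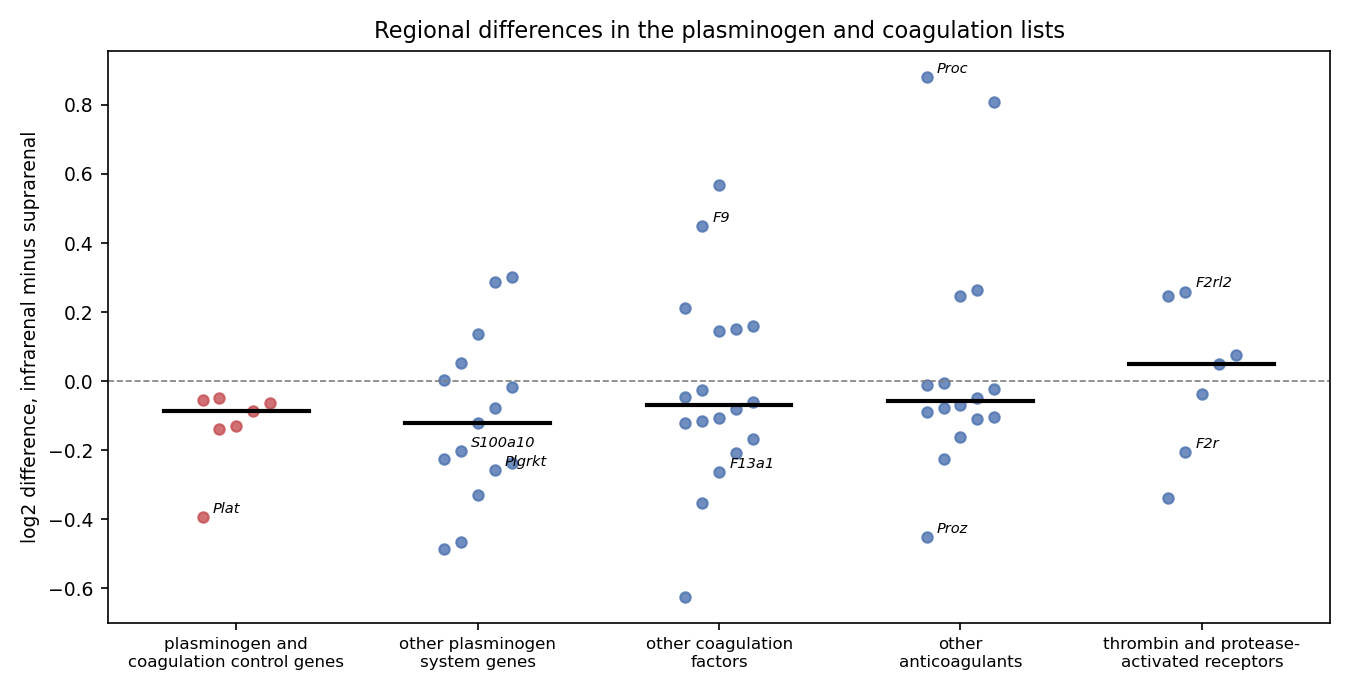
Log2 differences, infrarenal minus suprarenal, of single genes, with the 7 measured plasminogen and coagulation control genes in red and the 4 lists of further genes in blue. Bars are medians, from -0.12 to 0.050, and no gene passed the test.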

How the data were processed

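In all, 1 array was run for each of 10 pooled aorta samples. Per the labels' protocols, cRNA carrying biotin was made from 0.34 to 0.54 µg of total RNA and detected with Cy5-streptavidin. The deposited intensities are linear and were scaled per array by the authors, as read from the array medians. Which scanner, background correction and scaling were used is not stated in the labels. There were 1968 missing intensities and 1755 at or below 0. The 5328 below 0.0278 (percentile 1 of the positive values) were raised to it, and log2 was taken. Probes with fewer than 3 values in a region were dropped, leaving 36061 of 36227. The floor compresses log2 differences of dim probes, and scaling by medians takes most probes as equal between arrays.

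Names are those of the platform annotation, brought up to date through Entrez identifiers and the RefSeq table of GRCm38.p6. Of all probes, 21615 had 1 symbol, 681 had several and 13931 had none. The brightest probe stood for a gene. No source names a build for the arrays, so the coordinates given are those of the printed promoter windows and not of probes.

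The infrarenal and suprarenal arrays were compared in limma 3.58.1 under R 4.3.3, using lmFit with the pool as a block and eBayes with a variance trend. The p-values are two-sided, and Benjamini-Hochberg adjustment ran over every probe tested, with a threshold of 0.05. The design gives the pairing, because each pool was split into both parts. As a check, deviations of the 2 arrays of a pool from their group means had correlations of 0.245, -0.00837, 0.0213, -0.244 and -0.184 in pools 1, 6, 8, 11 and 12. They were above 0 in pools 1 and 8 only, so the check did not show that arrays of the same pool were alike. Single animals are not numbered in the labels, so the spread is that between pools, and 5 pools limit the precision. The script was tested on simulated data without a pool effect, with added differences larger than any estimate of the measured genes. That test does not show whether differences of the size reported here could be found. Genes and lists were chosen with earlier results of these data known. All 9 genes of the set were named, with the 2 genes of smallest p in each further list and the 1 gene most correlated with each measured gene. The alternatives were no replicate block, quantile normalization, an offset of 0.2701 instead of the floor, a filter that removed the dimmest 30% of probes, no variance trend, RNA input as a covariate, array weights, each pool left out, probes averaged and a sign-flip permutation. Averaging the probes of a gene could not change the measured genes of the set, since each had a single probe.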

Additional observations from a re-analysis of the deposited data

Results flagged for a closer look

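Among 48 sets of 5 arrays from 1 region, for the 7 measured genes, 8 named genes of the further lists and 9 marker lists, 3 held an array that lay well away from the remaining 4. Chance alone marks about 1 in 20 sets. Of these, 2 concern Serpinf1. Its infrarenal array of pool 12 read 5.67 log2 units, against 5.26 to 5.37 on the other infrarenal arrays. Its suprarenal array of pool 1 read 5.01, against 5.48 to 5.66 on the other suprarenal arrays. The infrarenal array of pool 1 read 3.30 for Plgrkt, against 2.81 to 2.90 on the other infrarenal arrays.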

How the results depend on the processing

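In every fit run, 0 of the 7 measured genes and 0 of the 56 further genes passed the test. With no replicate block, 0 probes passed in all and Plat differed by -0.39 (limma adjusted p = 0.646). After quantile normalization 1 probe of the whole table passed, and none of the 7 genes. The cause was not tested. Quantile normalization turned the estimates of Plaur, Serpinf1 and Procr to 0.014, 0.069 and 0.025 log2 units, and array weights turned that of Procr to 0.0090. With RNA input as a covariate, Procr, Tfpi and Plau were at -0.11, -0.15 and -0.21, each over 1.5 times the reported estimate, and Plat was at -0.43 (unadjusted p = 0.00612, adjusted p = 0.58 by limma). Estimates with 1 pool left out ran from -0.52 to 0.33 for Plau, turning without pool 8, and from -0.14 to 0.011 for Serpinf1, turning without pool 11. They ran from -0.19 to 0.13 for Tfpi and from -0.18 to 0.12 for Procr, both turning without pool 12. Plat stayed below 0 in all fits, from -0.49 without pool 1 to -0.28 without pool 12. Its unadjusted p was under 0.05 as reported but not after quantile normalization, with no variance trend, or without pool 8 or 12. Plaur kept its sign with any pool left out (-0.15 to -0.002), and Thbd kept it in all fits run. The median of the 7 genes lay between -0.19 and -0.074 with 1 pool left out. At an unadjusted p under 0.05 the whole table held 1475 probes without pool 6, 3931 without pool 12 and 2726 with all pools. The limma intervals of the 7 genes show the precision that 5 pools gave. They are not adjusted for the number of probes, and that of Plat left out 0 although Plat did not pass the test.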
